A study of Mus musculus with 21 samples.

Results

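RNA of round spermatids was compared with RNA of pachytene spermatocytes, both from *H2al2* knockout (KO) mice, in 6 of the 21 libraries of a series on fractionated mouse spermatogenic cells. The 6 libraries were taken by their labels, 3 per stage, and all 24456 genes listed in each file were kept. Both groups carried the knockout of *H2al2*, which encodes the histone H2A variant H2A.L.2 of late spermatids, and differed in stage only, with no other agent given. The wild-type libraries of the same stages, 3 each, served to set the KO values beside those of unmodified cells, and the condensing spermatids and spermatozoa of the series were not used. The cells were purified from testis as fractions, which are enriched rather than pure, and the age of the mice, the strain and the structure of the *H2al2* allele were not given in the sources used here. The labels number the libraries of a group without tying them to animals, so that the p-values below measure the spread between these libraries, which may in part be technical.

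Pachytene spermatocytes are in the long prophase of the first meiotic division, when homologous chromosomes are held together by the synaptonemal complex, exchange strands, and keep the X and the Y chromosome silent in a separate nuclear body. Round spermatids are the haploid cells that follow the divisions. They lay down the acrosome, begin the flagellum, and transcribe and store the mRNAs of the transition proteins and protamines that later replace the histones.

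The KO pachytene libraries held 5799060 to 6695384 read counts on genes and the KO round spermatid libraries 7230653 to 7387043. A further 34.6% to 51.7% of the counted reads of the 6 libraries fell on no gene. Levels are given below as CPM, counts scaled to a common library size with the factors of the trimmed mean of M-values (TMM) over the 6 libraries, and differences as log2 fold changes of round spermatids over pachytene spermatocytes. Within a stage, the correlation of log2(CPM + 1) between libraries was 0.986 to 0.992. The 2 mitochondrial ribosomal RNAs took 5.52% to 6.50% of the counts in KO pachytene spermatocytes and 3.11% to 3.59% in KO round spermatids. In these bulk fractions fewer cells of a type and less RNA per cell cannot be told apart.

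The gene of H2A.L.2, listed as *H2afb1* (chr2:17996417-17996958, GRCm38), served as a check of the labels. It was read at 4.91, 5.10 and 3.12 CPM in KO pachytene spermatocytes and 25.6, 26.2 and 21.1 CPM in KO round spermatids. Scaled together with wild type, its mean was 4.41 ± 1.09 CPM (SD, n = 3) in KO and 29.7 ± 13.4 CPM (SD, n = 3) in wild-type pachytene spermatocytes, and 24.3 ± 2.75 CPM (SD, n = 3) against 208 ± 6.12 CPM (SD, n = 3) in round spermatids. The KO level was thus 14.9% and 11.7% of the wild-type level. The reads that remained rose between the stages by a log2 fold change of 2.48 (SE 0.203, edgeR adjusted p = 2.98e-09), beside 2.88 in wild type, and what transcript they come from was not tested.

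The stages differed over most of the transcriptome. Of 12828 genes that passed the filter on low counts, 9848 (76.8%) had an adjusted p under 0.05 by the quasi-likelihood test of edgeR, adjusted after Benjamini-Hochberg over all genes tested, which is the test behind every adjusted p given here. Of these, 4737 genes (36.9%) were higher and 5111 (39.8%) lower in KO round spermatids. A stricter rule also asked for a fitted change of at least 4-fold, and by it 1451 genes (11.3%) were higher and 961 (7.49%) lower. The 3 libraries of one stage lay wholly above or below the 3 of the other for 9982 genes (77.8%). The log2 fold change had a median of -0.03 over the genes tested, with quartiles of -0.96 and 1.04, so that counts for a gene group are read below against these shares. The 19 lists of germ-cell genes used below hold 546 genes of the files, of which 509 passed the filter. With scaling by library size alone the median was -0.20, and 1078 genes were at least 4-fold higher and 1222 lower.

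**Figure D1:**
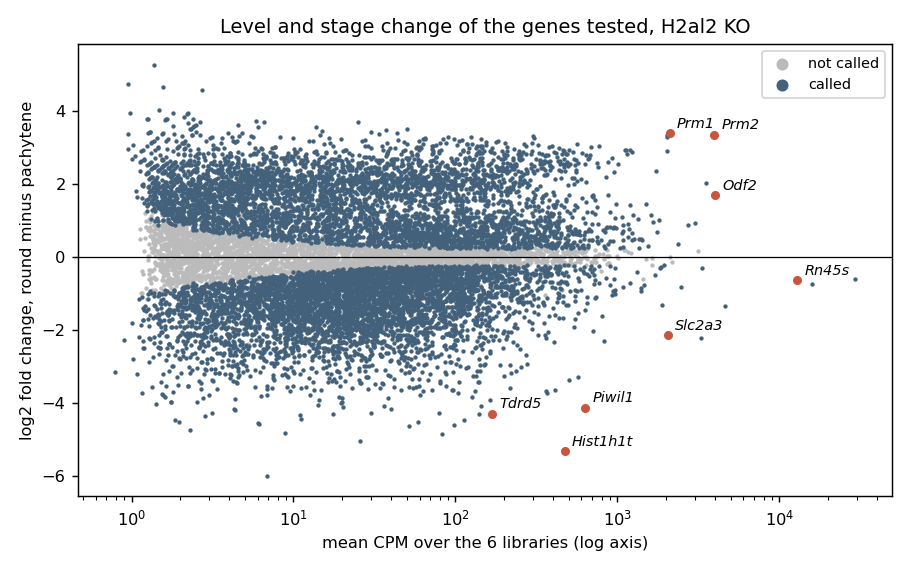
Each point is 1 of the 12828 genes tested, with the mean CPM over the 6 KO libraries on the x axis (log scale) and the log2 fold change of round spermatids over pachytene spermatocytes on the y axis. Dark points had an edgeR adjusted p under 0.05, and red points are named genes. Among genes with a mean of at least 100 CPM the rises ended at a log2 fold change of 3.38 (*Prm1*), while the falls reached -5.31 (*Hist1h1t*).

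The transition proteins and protamines, the small basic proteins that package the sperm nucleus, rose together. All 5 members of the list, for which the shares over all genes are 36.9% higher and 11.3% at least 4-fold higher, were at least 4-fold higher in KO round spermatids, with a median log2 fold change of 3.34. *Prm1*, which encodes protamine 1, was read at 365, 395 and 339.7 CPM in KO pachytene spermatocytes and 3911, 4252 and 3318 CPM in KO round spermatids, a log2 fold change of 3.38 (SE 0.119, edgeR adjusted p = 1.43e-13). *Prm2*, which encodes protamine 2, was read at 688, 764 and 681 CPM in KO pachytene spermatocytes and 6857, 8661 and 6079 CPM in KO round spermatids, a log2 fold change of 3.34 (SE 0.131, edgeR adjusted p = 5.67e-13). The transition protein genes moved by nearly the same amount. *Tnp1* was read at 364, 401 and 326 CPM in KO pachytene spermatocytes and 3613, 4206 and 3297 CPM in KO round spermatids, a log2 fold change of 3.35 (SE 0.122, edgeR adjusted p = 2.26e-13), and *Tnp2* changed by 3.30 (SE 0.121). *Prm3*, the acidic relative that lies between *Prm2* and *Tnp2*, was read at 30.4, 37.0 and 34.8 CPM in KO pachytene spermatocytes and 237, 283 and 215 CPM in KO round spermatids, a log2 fold change of 2.84 (SE 0.127, edgeR adjusted p = 1.1e-12). No library of one stage overlapped with the other for any of the 5 genes. Among the round spermatid libraries, replicate 3 was the lowest and replicate 2 the highest for all 5.

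The genes *Prm1*, *Prm2*, *Prm3* and *Tnp2* lie within 8889 bases of chromosome 16 (chr16:10787935-10796823, GRCm38). This cluster took 0.158% ± 0.00971 (SD, n = 3) of the counts on genes in KO pachytene spermatocytes and 1.40% ± 0.185 (SD, n = 3) in KO round spermatids. The share of chromosome 16 went from 2.696% ± 0.00758 to 3.99% ± 0.139 (SD, n = 3 each), and without the 4 genes it was 2.54% ± 0.00345 and 2.59% ± 0.0486.

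The promoters of *Tnp1* and *Prm1* are shown because these genes had the largest rises among the 5 transition protein and protamine genes. They are the bases just before the annotated gene in RefSeq (GRCm38.p6), 5′ to 3′ on the strand of the gene (chr1:73015900-73016149, minus strand for *Tnp1* and chr16:10796824-10797073, minus strand for *Prm1*). Capitals mark exact matches to any of the motifs that are set out below with the transcription factors. Only 1 run, TAACTG in *Prm1*, was found. Near matches were not marked, such as TGATGTCA in *Tnp1* and TGACTTCA in *Prm1*, each 1 base from the cAMP response element TGACGTCA.
Tnp1: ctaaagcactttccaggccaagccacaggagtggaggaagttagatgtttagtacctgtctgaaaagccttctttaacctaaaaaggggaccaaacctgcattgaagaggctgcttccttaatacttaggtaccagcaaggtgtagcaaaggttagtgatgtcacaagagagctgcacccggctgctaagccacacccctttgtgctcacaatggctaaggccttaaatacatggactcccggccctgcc
Prm1: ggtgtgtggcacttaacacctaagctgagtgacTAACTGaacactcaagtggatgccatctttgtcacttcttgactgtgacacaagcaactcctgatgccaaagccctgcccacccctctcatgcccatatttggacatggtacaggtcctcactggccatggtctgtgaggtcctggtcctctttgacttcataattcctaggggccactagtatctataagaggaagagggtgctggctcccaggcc

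Testis histone variants moved in both directions, and by large amounts. Of 14 members tested, 7 (50%) were higher and 7 (50%) lower, beside 36.9% and 39.8% of all genes tested. All 14 had libraries that did not overlap, beside 77.8% of all genes tested. *Hist1h1t*, the linker histone H1t of spermatocytes, had the largest fall among genes with a mean of at least 20 CPM. It was read at 853, 916 and 990.2 CPM in KO pachytene spermatocytes and 29.6, 22.1 and 17.7 CPM in KO round spermatids, a log2 fold change of -5.31 (SE 0.162, edgeR adjusted p = 3.82e-13), or 39.6-fold. *Hist1h2ba*, the testis H2B variant TH2B, was read at 574, 760.0 and 687 CPM in KO pachytene spermatocytes and 70.1, 45.2 and 43.5 CPM in KO round spermatids, a log2 fold change of -3.67 (SE 0.189, edgeR adjusted p = 6.36e-09). *Hist1h2aa*, which encodes its H2A partner TH2A and is transcribed divergently from the adjacent position, changed by -1.59 (SE 0.170). *H2afy*, the macroH2A of silent chromatin, changed by -1.78 (SE 0.124). *H2afx*, the variant phosphorylated on the sex body, is listed with the recombination genes below and changed by -2.30 (SE 0.139). Of the genes for H3.3, *H3f3b* changed by -1.22 (SE 0.102, edgeR adjusted p = 3.67e-09) and *H3f3a* by 0.26 (SE 0.0968, edgeR adjusted p = 0.0205). The rise of *H3f3a* was lost with scaling by library size alone (edgeR adjusted p = 0.406), with no filter on low counts (edgeR adjusted p = 0.0770) and without pachytene replicate 1 or 2 (edgeR adjusted p = 0.103 and 0.0561).

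Besides *H3f3a* and *H2afb1*, the variants that rose were those of spermatids. *H1fnt*, a linker histone of elongating cells, was read at 101, 105.1 and 88.6 CPM in KO pachytene spermatocytes and 831, 799.7 and 682 CPM in KO round spermatids, a log2 fold change of 2.97 (SE 0.115, edgeR adjusted p = 3.89e-13). *Hils1*, another spermatid linker histone, changed by 2.51 (SE 0.113). The H2B variant gene *1700024P04Rik* (*H2bl1*) changed by 3.08 (SE 0.159), and the X-linked H2A variant genes *4930557A04Rik* (*H2al3*) and *1700012L04Rik* (*H2al1m*) by 2.67 (SE 0.151) and 2.99 (SE 0.270). These variants belong to families with similar copies, among which reads can be lost, since the counting kept uniquely aligned reads alone.

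The promoters of the 2 genes of the testis histone variant list that fell most are given in the same form (chr13:23695561-23695810, plus strand for *Hist1h1t* and chr13:23934157-23934406, minus strand for *Hist1h2ba*). The capitals in *Hist1h2ba* are CGTCA, at 114 to 110 bases before the gene, and CAGTTG, at 48 to 43 bases before it.
Hist1h1t: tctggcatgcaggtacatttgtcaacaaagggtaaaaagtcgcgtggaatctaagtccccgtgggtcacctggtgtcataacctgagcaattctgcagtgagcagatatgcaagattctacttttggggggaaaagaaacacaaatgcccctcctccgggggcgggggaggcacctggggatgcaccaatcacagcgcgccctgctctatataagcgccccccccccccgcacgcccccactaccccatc
Hist1h2ba: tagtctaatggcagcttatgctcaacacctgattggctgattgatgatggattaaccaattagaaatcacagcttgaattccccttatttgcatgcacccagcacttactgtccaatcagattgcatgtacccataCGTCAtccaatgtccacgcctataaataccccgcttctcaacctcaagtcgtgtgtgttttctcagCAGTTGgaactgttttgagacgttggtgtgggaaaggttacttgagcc

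**Figure D2:**
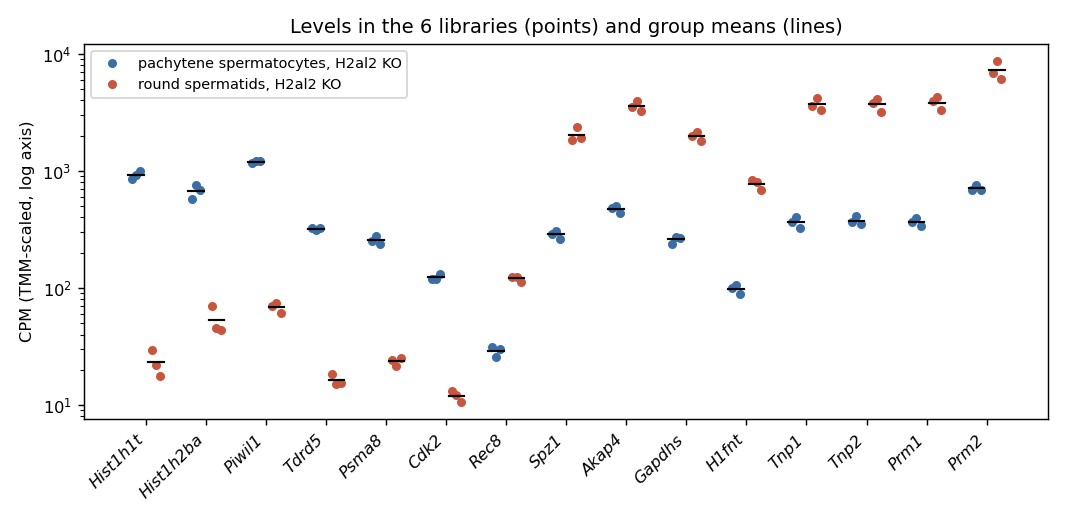
CPM (log axis) of 15 named genes in the 3 KO pachytene libraries (blue) and the 3 KO round spermatid libraries (red), with lines at the group means. For each gene the 3 libraries of one stage lie wholly above or below those of the other, with *Hist1h1t* between 853 and 990 CPM in pachytene spermatocytes and between 17.7 and 29.6 CPM in round spermatids.

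Genes of the meiotic axis and of recombination were mostly lower in KO round spermatids. Of 20 genes of the synaptonemal complex and meiotic axis, 13 (65%) fell and 3 (15%) rose, beside 39.8% and 36.9% of all genes tested. Their median log2 fold change was -1.11. *Hormad1*, a HORMA-domain protein of unsynapsed axes, was read at 165, 174 and 98.0 CPM in KO pachytene spermatocytes and 23.3, 28.8 and 29.9 CPM in KO round spermatids, a log2 fold change of -2.41 (SE 0.221, edgeR adjusted p = 5.04e-06). *Sycp3*, of the lateral element, was read at 201, 227 and 125 CPM in KO pachytene spermatocytes and 30.3, 34.4 and 49.7 CPM in KO round spermatids, a log2 fold change of -2.27 (SE 0.290, edgeR adjusted p = 0.000365). *Sycp1*, of the transverse filament, was at 286, 313 and 126 CPM in KO pachytene spermatocytes and 55.2, 116 and 118 CPM in KO round spermatids, and its log2 fold change of -1.32 (SE 0.507) did not pass the test (edgeR adjusted p = 0.0691), which it did without pachytene replicate 3 (edgeR adjusted p = 0.0204), with scaling by library size alone (0.0470), in the fit on 18 libraries (0.0158) and by DESeq2 (adjusted p = 0.0187). For *Sycp1* and *Sycp2* the pachytene replicate 3 and the round spermatid replicate 1 were each the lowest library of their stage. Against the direction of the list, *Rec8*, the meiotic cohesin subunit, was read at 31.2, 25.8 and 30.4 CPM in KO pachytene spermatocytes and 125, 125 and 113 CPM in KO round spermatids, a log2 fold change of 2.05 (SE 0.118, edgeR adjusted p = 2.15e-11). *Syce2*, of the central element, changed by 1.99 (SE 0.137).

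Of 26 recombination genes, 17 (65.4%) fell and 4 (15.4%) rose, beside 39.8% and 36.9% of all genes tested, with a median of -0.96. *Mlh3*, which resolves crossovers, was read at 161, 175 and 150.3 CPM in KO pachytene spermatocytes and 19.5, 20.6 and 25.6 CPM in KO round spermatids, a log2 fold change of -2.88 (SE 0.128, edgeR adjusted p = 9.69e-13). *Ccnb1ip1* (HEI10), a crossover regulator, changed by -3.37 (SE 0.260) and *Spo11*, which makes the initiating breaks, by -1.31 (SE 0.112). *Tex15*, listed here as a recombination gene, was at 154, 131 and 55.1 CPM in KO pachytene spermatocytes and 132, 418 and 387 CPM in KO round spermatids, and its groups overlapped. Its log2 fold change of 1.46 (SE 0.642, edgeR adjusted p = 0.0991) passed the test without round spermatid replicate 1 (edgeR adjusted p = 0.0258), in the fit on 18 libraries (0.0375) and by DESeq2 (adjusted p = 0.0237).

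Of 29 genes of the meiotic divisions, 14 (48.3%) fell and 10 (34.5%) rose, with a median of 0.02. Over all genes tested the shares were 39.8% lower and 36.9% higher. *Cdk2*, a kinase that is also bound to telomeres and crossover sites in prophase, was read at 119, 119 and 131 CPM in KO pachytene spermatocytes and 13.1, 12.1 and 10.5 CPM in KO round spermatids, a log2 fold change of -3.37 (SE 0.129, edgeR adjusted p = 3.5e-13). *Fbxo43* (EMI2), an inhibitor of the anaphase-promoting complex, changed by -3.04 (SE 0.134). *Ccnb1*, the cyclin B1 of the division kinase, was instead read at 28.0, 32.2 and 44.3 CPM in KO pachytene spermatocytes and 130.05, 127 and 132 CPM in KO round spermatids, a log2 fold change of 1.89 (SE 0.140, edgeR adjusted p = 1.39e-09). *Plk1*, a mitotic kinase, changed by 1.54 (SE 0.166).

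The piRNA pathway, which makes small RNAs against transposons and has its main pachytene phase in spermatocytes, had the lowest median of the 19 lists of germ-cell genes, -1.45. Of 26 genes, 18 (69.2%) fell and 5 (19.2%) rose, beside 39.8% and 36.9% of all genes tested. At least 4-fold lower were 8 (30.8%), beside 7.49% of all genes tested. *Piwil1* (MIWI), which binds the pachytene piRNAs, was read at 1159, 1222 and 1215 CPM in KO pachytene spermatocytes and 69.9, 74.9 and 61.4 CPM in KO round spermatids, a log2 fold change of -4.12 (SE 0.114, edgeR adjusted p = 2.43e-14). *Tdrd5*, a Tudor protein of piRNA granules, was read at 325, 315 and 322 CPM in KO pachytene spermatocytes and 18.5, 15.2 and 15.5 CPM in KO round spermatids, a log2 fold change of -4.29 (SE 0.121, edgeR adjusted p = 2.43e-14), and *Tdrd1* changed by -3.71 (SE 0.107). For other granule components the difference did not pass the test. *Ddx4*, the helicase VASA, was at 726, 786 and 637 CPM in KO pachytene spermatocytes and 552, 655 and 753 CPM in KO round spermatids, with groups that overlapped and a difference that passed with scaling by library size alone (edgeR adjusted p = 0.0177), and *Mael*, a granule protein of piRNA maturation, had a log2 fold change of 0.19 (SE 0.101, edgeR adjusted p = 0.0896), which passed under 4 alternatives (adjusted p of 0.0270 to 0.0466).

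**Figure D3:**
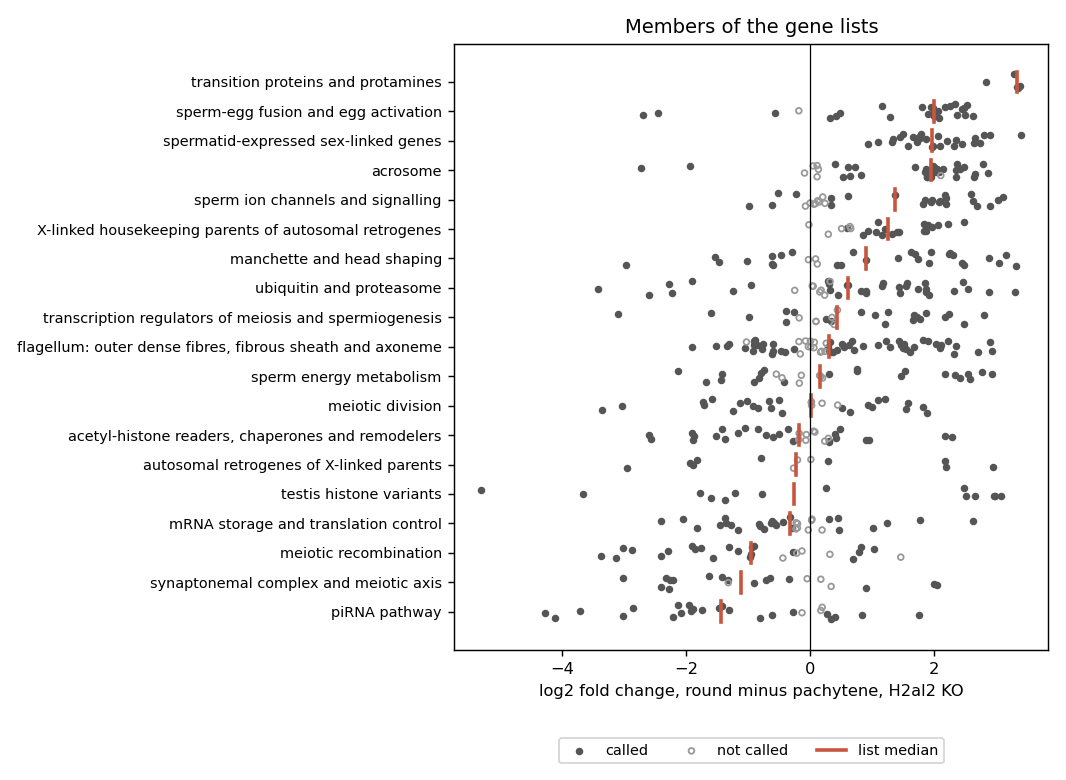
Log2 fold change of round spermatids over pachytene spermatocytes in *H2al2* KO for the members of the 19 lists of germ-cell genes that passed the filter, 1 point per gene. Filled points had an edgeR adjusted p under 0.05, open points did not, and red bars are list medians, which run from -1.45 (piRNA pathway) to 3.34 (transition proteins and protamines).

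Transcription regulators showed 15 rises (55.6%) and 6 falls (22.2%) among 27 genes, beside 36.9% and 39.8% of all genes tested. Their median was 0.44. *Gmcl1*, a germ-cell protein that its list holds beside the DNA-binding factors, was read at 397, 415 and 458 CPM in KO pachytene spermatocytes and 53.1, 40.9 and 53.2 CPM in KO round spermatids, a log2 fold change of -3.11 (SE 0.123, edgeR adjusted p = 4.31e-13). *Mybl1* (A-MYB), the activator of meiotic genes, was read at 217, 240.4 and 168 CPM in KO pachytene spermatocytes and 56.2, 62.8 and 86.4 CPM in KO round spermatids, a log2 fold change of -1.61 (SE 0.170, edgeR adjusted p = 2.62e-06). *Crem*, which drives haploid genes through the cAMP response element, was read at 145, 145 and 123 CPM in KO pachytene spermatocytes and 218, 259.7 and 253 CPM in KO round spermatids, a log2 fold change of 0.82 (SE 0.109, edgeR adjusted p = 1.76e-06). Its partners also rose. *Fhl5* (ACT), the coactivator, changed by 2.25 (SE 0.122), and *Kif17*, the kinesin that moves ACT, was read at 119, 110.2 and 119 CPM in KO pachytene spermatocytes and 673, 704 and 565 CPM in KO round spermatids, a log2 fold change of 2.48 (SE 0.111, edgeR adjusted p = 1.05e-12). *Rfx1* changed by 2.17 (SE 0.116) and *Rfx2*, the RFX factor needed for spermatids, by 0.26 (SE 0.107, edgeR adjusted p = 0.0353), with groups that overlapped and a call that was lost with scaling by library size alone (edgeR adjusted p = 0.453), with no filter on low counts (edgeR adjusted p = 0.0796) and without any 1 of 4 libraries. *Spz1*, a basic helix-loop-helix protein of spermatids, was read at 292, 309 and 262 CPM in KO pachytene spermatocytes and 1817, 2354 and 1891 CPM in KO round spermatids, a log2 fold change of 2.81 (SE 0.120, edgeR adjusted p = 7.67e-13).

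The promoters of the genes were scanned for exact matches to the motifs of these factors, on both strands. Windows ran from 250 bases before to 50 bases after the outermost RefSeq start. A window was found for 10296 of the 12828 genes tested, for 1156 of those at least 4-fold higher and for 738 of those at least 4-fold lower. The full cAMP response element, TGACGTCA, was in 3.43% of all windows, in 2.77% of those of the genes at least 4-fold higher and in 2.17% of those at least 4-fold lower. Its 5-base part, TGACG, which the full element contains, was in 31.2%, 19.2% and 29.9%. The MYB elements searched were CAACGG together with CAACTG, and the forms TAACGG together with TAACTG, and at least 1 of them was in 27.2%, 28.6% and 29.9%. GTTGCC, the left arm of the X-box of RFX factors, was in 14.2%, 18.1% and 11.5%, and the form with both arms, with GGCAAC up to 3 bases further on, in 0.262%, 0.260% and 0 of 738. The median GC content of the windows was 60%, 52.3% and 60%, so that motifs with CG were searched in windows of unequal composition.

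*Kif17* and *Spag4*, 2 genes of the lists that were at least 4-fold higher and held the full element, are shown in the same form (chr4:138262001-138262250, plus strand for *Kif17* and chr2:156064963-156065187, plus strand for *Spag4*). In *Kif17* the element lay 86 to 79 bases before the gene, followed by GTTGCC at 73 to 68 and CAACGG at 64 to 59, and in *Spag4* it lay 12 to 5 bases before the gene. *Spag4*, a SUN-domain protein of the spermatid, was read at 50.05, 43.8 and 43.4 CPM in KO pachytene spermatocytes and 224, 231 and 196 CPM in KO round spermatids, a log2 fold change of 2.25 (SE 0.113, edgeR adjusted p = 3.88e-12).
Kif17: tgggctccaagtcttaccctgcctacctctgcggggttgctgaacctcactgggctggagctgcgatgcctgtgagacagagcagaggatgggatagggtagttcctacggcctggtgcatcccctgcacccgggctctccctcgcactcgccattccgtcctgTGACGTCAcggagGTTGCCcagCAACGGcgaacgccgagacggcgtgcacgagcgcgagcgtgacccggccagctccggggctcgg
Spag4: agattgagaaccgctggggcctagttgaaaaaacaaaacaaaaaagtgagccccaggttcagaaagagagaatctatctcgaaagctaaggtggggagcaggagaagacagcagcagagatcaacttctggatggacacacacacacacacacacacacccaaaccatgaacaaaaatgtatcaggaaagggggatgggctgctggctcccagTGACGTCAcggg

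Among 33 acetyl-histone readers, chaperones and remodelers, 16 (48.5%) fell and 9 (27.3%) rose, with a median of -0.18. The shares over all genes tested were 39.8% and 36.9%. *Supt16*, of the histone chaperone FACT, was read at 293, 297 and 249.6 CPM in KO pachytene spermatocytes and 45.1, 44.1 and 51.9 CPM in KO round spermatids, a log2 fold change of -2.57 (SE 0.115, edgeR adjusted p = 1.1e-12). *Hira*, the H3.3 chaperone, changed by -1.52 (SE 0.180). *Brdt*, the testis bromodomain protein, was at 425, 467 and 389.7 CPM in KO pachytene spermatocytes and 317, 402 and 414 CPM in KO round spermatids, with groups that overlapped and a log2 fold change of -0.18 (SE 0.114, edgeR adjusted p = 0.162), which passed with scaling by library size alone (edgeR adjusted p = 0.00555). On the other side, *Chd5*, a remodeler of spermatid chromatin, was read at 218, 196 and 175 CPM in KO pachytene spermatocytes and 911, 952 and 786 CPM in KO round spermatids, a log2 fold change of 2.17 (SE 0.113, edgeR adjusted p = 6.04e-12). *Nutm1*, which recruits p300 in spermatids, changed by 2.29 (SE 0.118). *Atad2*, a bromodomain ATPase, was read at 58.4, 51.3 and 34.1 CPM in KO pachytene spermatocytes and 74.0, 97.2 and 104.7 CPM in KO round spermatids, a log2 fold change of 0.94 (SE 0.191, edgeR adjusted p = 0.000863).

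Genes of the acrosome and of fertilization were mostly higher in KO round spermatids. Of 40 acrosome genes, 32 (80%) rose and 2 (5%) fell, beside 36.9% and 39.8% of all genes tested, with a median of 1.96. At least 4-fold higher were 16 (40%), beside 11.3% of all genes tested. *Actrt2*, an actin-related protein of the perinuclear theca, was read at 106, 98.4 and 89.7 CPM in KO pachytene spermatocytes and 767, 755 and 625 CPM in KO round spermatids, a log2 fold change of 2.87 (SE 0.116, edgeR adjusted p = 5.08e-13). *Acr*, the protease acrosin, was already read at 132, 155 and 166 CPM in KO pachytene spermatocytes and at 235, 255 and 257 CPM in KO round spermatids, a log2 fold change of 0.72 (SE 0.107, edgeR adjusted p = 7.37e-06). *Gopc*, a Golgi protein needed for acrosome formation, fell, from 96.8, 104.97 and 92.6 CPM to 14.7, 11.4 and 18.3 CPM, a log2 fold change of -2.72 (SE 0.148, edgeR adjusted p = 1.03e-11). *Cylc2* was at 31.2, 39.5 and 13.2 CPM in KO pachytene spermatocytes and 43.1, 199 and 118 CPM in KO round spermatids, and a log2 fold change of 2.11 (SE 0.755) did not pass the test (edgeR adjusted p = 0.0578), which it did without round spermatid replicate 1 (edgeR adjusted p = 0.0161), in the fit on 18 libraries (0.00310) and by DESeq2 (adjusted p = 0.00486).

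Of 27 genes of sperm-egg fusion and egg activation, 23 (85.2%) rose and 3 (11.1%) fell, beside 36.9% and 39.8% of all genes tested. Their median was 2.00. *Izumo1*, the sperm ligand in fusion, was read at 25.2, 21.1 and 20.3 CPM in KO pachytene spermatocytes and 85.1, 90.7 and 87.8 CPM in KO round spermatids, a log2 fold change of 1.99 (SE 0.123, edgeR adjusted p = 5.98e-11). *Plcz1*, the phospholipase that activates the egg, changed by 2.49 (SE 0.308) and *Ace*, the testis form of angiotensin-converting enzyme, by 2.63 (SE 0.113). *Tex101*, a surface protein of germ cells, had a log2 fold change of -2.45 (SE 0.135, edgeR adjusted p = 1.21e-11).

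Of 64 flagellum genes, 33 (51.6%) rose and 18 (28.1%) fell, beside 36.9% and 39.8% of all genes tested, with a median of 0.30. Of those that rose, 9 were at least 4-fold higher. These are 14.1% of the list, near the 11.3% of all genes tested. *Akap4*, the X-linked main protein of the fibrous sheath, was read at 483, 505 and 434 CPM in KO pachytene spermatocytes and 3480.4, 3964 and 3218 CPM in KO round spermatids, a log2 fold change of 2.91 (SE 0.113, edgeR adjusted p = 3.89e-13), and *Odf1*, of the outer dense fibres, changed by 2.71 (SE 0.114). *Odf2*, the gene with the most counts among those that rose, was read at 1750.1, 1886 and 2042 CPM in KO pachytene spermatocytes and 6059, 6624 and 5562 CPM in KO round spermatids, a log2 fold change of 1.68 (SE 0.106, edgeR adjusted p = 7.22e-11). Dynein heavy chains of the axoneme were among the falls. *Dnah8* was read at 6127, 6324 and 7399.7 CPM in KO pachytene spermatocytes and 2682, 2467 and 2663 CPM in KO round spermatids, a log2 fold change of -1.35 (SE 0.104, edgeR adjusted p = 1.29e-09), and *Dnah2* changed by -1.30 (SE 0.0954), while *Dnah5* and *Dnah9* changed by 1.54 (SE 0.235) and 1.52 (SE 0.237). *Ift20*, which carries cargo from the Golgi to the flagellum, had the lowest value of the list, -1.90 (SE 0.139).

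Of 31 genes for sperm ion channels and signalling, 19 (61.3%) rose and 4 (12.9%) fell, beside 36.9% and 39.8% of all genes tested. Their median was 1.36. *Tssk3*, a testis-specific serine kinase, was read at 32.3, 31.3 and 29.0 CPM in KO pachytene spermatocytes and 256, 272 and 226 CPM in KO round spermatids, a log2 fold change of 3.03 (SE 0.116, edgeR adjusted p = 3.55e-13). *Prkar2a*, a regulatory subunit of protein kinase A, changed by 3.11 (SE 0.137). Subunits of the CatSper calcium channel differed in size of change, with 2.19 (SE 0.115) for the pore subunit *Catsper1*, 0.61 (SE 0.102) for *Catsper2* and -0.62 (SE 0.0999) for the auxiliary *Catsperg2*. Of 31 manchette and head-shaping genes, 19 (61.3%) rose and 9 (29.0%) fell, with a median of 0.90. *Klc3*, a kinesin light chain that binds outer dense fibres, was read at 3.48, 2.63 and 1.85 CPM in KO pachytene spermatocytes and 25.6, 25.3 and 20.1 CPM in KO round spermatids, a log2 fold change of 3.16 (SE 0.226, edgeR adjusted p = 4.54e-10), and *Spem1*, needed to shed spermatid cytoplasm, changed by 3.06 (SE 0.113). *Cntrob*, the centriole protein centrobin, was read at 58.6, 47.1 and 43.7 CPM in KO pachytene spermatocytes and 5.90, 6.82 and 6.30 CPM in KO round spermatids, a log2 fold change of -2.97 (SE 0.163, edgeR adjusted p = 1.21e-11).

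Of 28 genes of sperm energy metabolism, 12 (42.9%) rose and 9 (32.1%) fell, with a median of 0.16. Over all genes tested 36.9% were higher and 39.8% lower. *Gapdhs*, the sperm glyceraldehyde-3-phosphate dehydrogenase, was read at 239, 274 and 265 CPM in KO pachytene spermatocytes and 1999, 2162 and 1789.8 CPM in KO round spermatids, a log2 fold change of 2.93 (SE 0.110, edgeR adjusted p = 2.7e-13), and *Hk1* and *Pgk2* changed by 2.34 (SE 0.107) and 2.18 (SE 0.102). *Slc2a3*, the glucose transporter GLUT3, was among the genes with the most counts that fell, from 3033, 3161 and 3775 CPM to 819.7, 667 and 776 CPM, a log2 fold change of -2.14 (SE 0.115, edgeR adjusted p = 9.24e-12). *Cyct*, the testis cytochrome c, changed by -1.68 (SE 0.155).

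Of 39 ubiquitin and proteasome genes, 25 (64.1%) rose and 7 (17.9%) fell, beside 36.9% and 39.8% of all genes tested. Their median was 0.61. *Psma8*, the α4s subunit of the testis proteasome, was read at 253, 275 and 239 CPM in KO pachytene spermatocytes and 24.4, 21.5 and 25.3 CPM in KO round spermatids, a log2 fold change of -3.42 (SE 0.118, edgeR adjusted p = 1.25e-13). *Psme4* (PA200), the activator tied to degradation of acetylated histones, was read at 804, 865 and 765 CPM in KO pachytene spermatocytes and 1337, 1580.5 and 1643 CPM in KO round spermatids, a log2 fold change of 0.91 (SE 0.104, edgeR adjusted p = 2.96e-07). *Ubqlnl*, a ubiquilin-like gene, was read at 49.4, 63.2 and 52.4 CPM in KO pachytene spermatocytes and 492, 648 and 496 CPM in KO round spermatids, a log2 fold change of 3.31 (SE 0.136, edgeR adjusted p = 9.61e-13). Of 33 genes of mRNA storage and translation control, 18 (54.5%) fell and 7 (21.2%) rose, with a median of -0.33. *Ptbp2*, a splicing regulator of germ cells, changed by -2.41 (SE 0.122), while *Samd4*, a translational repressor, changed by 2.63 (SE 0.122).

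The sex chromosomes stood apart from the autosomes in direction. Of 385 X-linked genes tested, 320 (83.1%) were higher in KO round spermatids, 138 of them at least 4-fold, and 0 were lower by edgeR, by DESeq2 or at an unadjusted p under 0.05. The median log2 fold change was 1.78, against -0.09 over 12382 autosomal genes, of which 4391 (35.5%) were higher and 5083 (41.1%) lower. The 65 X-linked genes that were not called had log2 fold changes of -1.03 to 1.05, with 60 above 0. Of 1065 X-linked genes listed, 656 were under 1 CPM in every KO pachytene library, as were 10122 of 23168 autosomal genes. Such genes could be tested only if they were higher in round spermatids, which raises the share called higher. Among genes with at least 10 counts in every library, 208 X-linked genes were higher and 0 lower. All 10 Y-linked genes tested were higher, with a median of 1.62. X-linked genes took 0.319%, 0.271% and 0.224% of the counts on genes in the KO pachytene libraries and 1.03%, 1.12% and 1.07% in the KO round spermatid libraries. The difference of 0.803 percentage points had p = 0.1 in an exact two-sided permutation test, the smallest p that 3 against 3 libraries allow.

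X-linked genes were ranked among called genes with a mean of at least 20 CPM and no overlap between the stages. The 5 with the largest rise were *Gm6760*, *Arhgef6*, *Gm614*, *Vsig1* and *Tspan6*, with log2 fold changes of 3.03, 3.02, 3.02, 2.98 and 2.93. *Arhgef6*, a guanine nucleotide exchange factor, was read at 7.29, 7.08 and 3.98 CPM in KO pachytene spermatocytes and 43.8, 59.7 and 44.7 CPM in KO round spermatids. *Tspan6*, a tetraspanin, was read at 20.4, 22.2 and 14.1 CPM in KO pachytene spermatocytes and 130.3, 154 and 144 CPM in KO round spermatids. That the libraries of the stages did not overlap was a condition of the ranking for these genes.

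Lists of sex-linked genes are given next. Their members are part of the X-linked and Y-linked genes counted above, so that their direction is not a separate result. All 27 genes tested of a list of spermatid genes on the X and Y rose, 12 of them at least 4-fold, with a median of 1.97. Another list held X-linked genes taken as parents of autosomal retrogenes, though a retrogene was listed for only part of them. Of 24 tested, 19 (79.2%) rose, 3 (12.5%) of them at least 4-fold, and 5 were not called, with a median of 1.26. Over all X-linked genes tested 83.1% rose, and 35.8% were at least 4-fold higher. Of 12 autosomal retrogenes, 4 (33.3%) rose and 5 (41.7%) fell, near the 36.9% and 39.8% of all genes tested, with a median of -0.24. *Cstf2*, a subunit of the cleavage stimulation factor, was read at 25.02, 22.5 and 17.04 CPM in KO pachytene spermatocytes and 78.2, 77.6 and 73.5 CPM in KO round spermatids, a log2 fold change of 1.83 (SE 0.137, edgeR adjusted p = 8.23e-10). Its retrogene *Cstf2t* was read at 123, 138 and 141 CPM in KO pachytene spermatocytes and 42.3, 30.5 and 40.7 CPM in KO round spermatids, a log2 fold change of -1.83 (SE 0.128, edgeR adjusted p = 3.29e-10). For phosphoglycerate kinase both rose, *Pgk1* by 1.09 (SE 0.260) and *Pgk2* by 2.18 (SE 0.102).

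**Figure D4:**
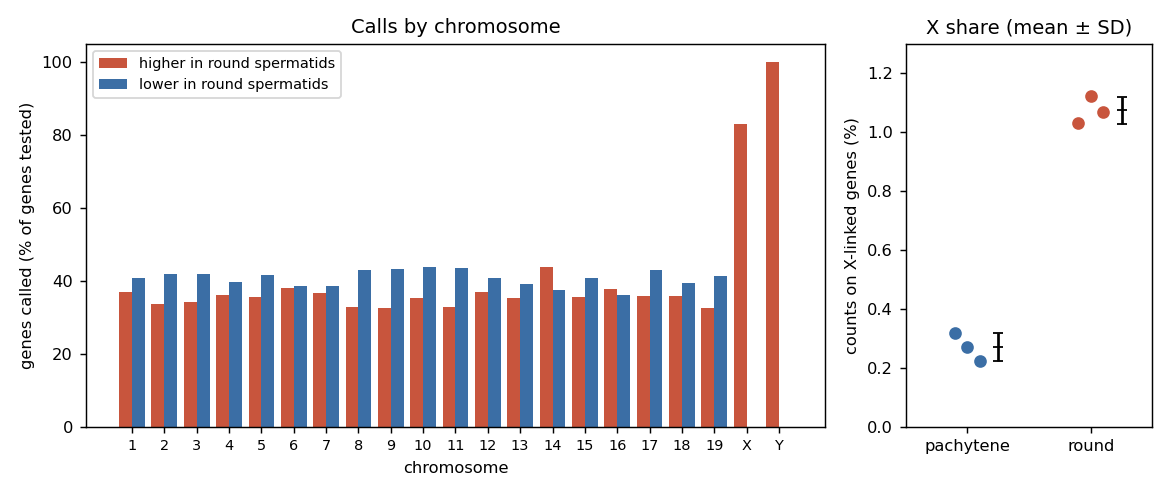
Left, the percent of genes tested on each chromosome that were higher (red) or lower (blue) in KO round spermatids by edgeR. Right, the percent of counts on X-linked genes in each of the 6 KO libraries, with mean and SD. The X (83.1% higher, 0 lower) and the Y (10 of 10 higher) lie outside the range of the autosomes, on which 32.5% to 43.7% of genes were higher.

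Beyond the lists, the 10 largest rises among called genes with a mean of at least 20 CPM and no overlap were *Defb33*, *Klk1b8*, *Ttc24*, *1700008P02Rik*, *Hmgb1-rs17*, *Prm1*, *1700029B22Rik*, *Tnp1*, *Prm2* and *Ubqlnl*, from 3.69 down to 3.31. *Defb33*, a β-defensin, was read at 3.96, 3.29 and 3.41 CPM in KO pachytene spermatocytes and 45.6, 53.4 and 39.4 CPM in KO round spermatids, a log2 fold change of 3.69 (SE 0.182, edgeR adjusted p = 3.06e-12). The 10 largest falls were *Hist1h1t*, *Gm21269*, *4921525O09Rik*, *D130017N08Rik*, *4931408D14Rik*, *4930579G24Rik*, *Gm10619*, *Gm5878*, *Tdrd5* and *Pnmal1*, from -5.31 to -4.28. Of these, *Gm21269*, *4921525O09Rik*, *D130017N08Rik*, *4931408D14Rik*, *Gm10619* and *Gm5878*, are annotated as long noncoding RNAs (lncRNAs). *4921525O09Rik* was read at 165, 163 and 151 CPM in KO pachytene spermatocytes and 5.34, 6.22 and 5.13 CPM in KO round spermatids, a log2 fold change of -4.84 (SE 0.138, edgeR adjusted p = 2.43e-14). Over all 766 lncRNAs tested, 426 (55.6%) were nevertheless higher and 192 (25.1%) lower, with a median of 1.03, against -0.07 over 11908 protein-coding genes.

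Besides *Odf2*, *Prm2*, *Dnah8* and *Slc2a3*, genes with the most counts that rose were *Akap12*, *Fhl4*, *Atp8b3* and *Phf7*, with log2 fold changes of 2.02, 0.93, 0.87 and 0.37, and those that fell included *Rn45s*, *Pabpc1* and *Hsp90aa1*, with -0.64, -0.29 and -0.82. The call was lost for *Phf7* with scaling by library size alone (edgeR adjusted p = 0.0635) and for *Pabpc1* without round spermatid replicate 1 or 2 (edgeR adjusted p = 0.126 and 0.133). *Akap12*, a kinase-anchoring protein, was read at 1379, 1393 and 1392 CPM in KO pachytene spermatocytes and 5349, 6214 and 5358 CPM in KO round spermatids. Its libraries did not overlap between the stages. *Rn45s* is the ribosomal RNA precursor, whose reads depend on how far the depletion of ribosomal RNA went.

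The rises and the falls differed in reach. Among 2369 genes with a mean of at least 100 CPM, 32 rose and 29 fell by 8-fold or more, but 0 rose and 14 fell by a log2 fold change of 3.5 or more. Markers of condensing spermatids, the next stage, were already read in the KO pachytene libraries. For the 14 markers tested, the pachytene mean was 9.58% to 17.5% of the round spermatid mean, with a median of 13.1%, and in wild type it was 11.97% to 20.5%. For *Prm1*, *Prm2*, *Tnp1* and *Tnp2* the KO share was 9.58% to 10.2%. The part of spermatid RNA in the pachytene fraction in these values was not tested. No gene was under 1 CPM in every library of one stage with a mean of at least 20 CPM in the other.

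Most markers of the labelled cells moved with their stage. Of 15 pachytene spermatocyte markers 10 fell, 2 rose and 3 were not called. Among them, *Ccna1* was in KO round spermatids at 232% of its KO pachytene mean. Of 15 round spermatid markers 14 rose and 1 was not called, and of 14 markers of condensing spermatids, the next stage, all rose. Markers of other cell types were also read. Leydig cell markers summed to 33.5 to 142 CPM in KO pachytene and 12.9 to 17.7 CPM in KO round spermatid libraries. All 6 tested, of 11 listed, fell. Macrophage markers summed to 3.48 to 5.10 CPM and 26.4 to 35.6 CPM, and all 6 tested, of 10 listed, rose. Sertoli cell markers summed to 31.1 to 52.4 CPM and 67.8 to 82.6 CPM, with 8 of 11 tested higher, of 22 listed. At such levels a marker can pass the filter through 1 stage alone, which by itself favours a call towards that stage. Peritubular myoid markers summed to 64.7 to 81.6 CPM and 331 to 440 CPM, of which *Actg2*, a smooth muscle actin, took 57.8, 53.8 and 47.6 CPM and 369, 409.8 and 311 CPM, and 2 of 7 rose. Spermatogonium markers summed to 164 to 259 CPM and 119 to 135 CPM, with 1 of 16 higher and 2 lower, and red blood cell markers to at most 1.61 CPM, with 4 of 8 at 0 in all 6 libraries. Their part in the results above was not tested.

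The same contrast in wild type, on 6 libraries that shared none with the KO comparison, called 9469 of 13100 genes (72.3%), 4826 (36.8%) higher and 4643 (35.4%) lower. At least 4-fold higher were 13.5% and at least 4-fold lower 5.6% of the genes tested. Over 12645 genes tested in both genotypes, the log2 fold changes had a Pearson r of 0.962 and a Spearman rho of 0.965, as a description across genes, which are not independent. Of the genes called in KO, 8571 (88.1%) were called in the same direction in wild type, which is 92.6% of the wild-type calls, and 0 were called in opposite directions. Of 1420 genes at least 4-fold higher in KO, 1204 (84.8%) were so in wild type, and of 947 at least 4-fold lower, 619 (65.4%). Without the fold rule, 99.2% and 98.4% of them were called in the same direction in wild type. From the wild-type side, 71.2% of the genes at least 4-fold higher and 87.3% of those at least 4-fold lower were so in KO. Of 412 X-linked genes tested in wild type, 339 were higher, with a median of 1.85.

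The difference between genotypes was tested as an interaction of stage and genotype on the 12 libraries. Of 13594 genes, 0 had an adjusted p under 0.05 by edgeR, 759 (5.58%) had an unadjusted p under 0.05, and the smallest adjusted p was 0.656. DESeq2's Wald test called 1 gene. For *Prm1* the change in KO exceeded that in wild type by 0.51 (SE 0.422, edgeR adjusted p = 0.796), and for *Hist1h1t* the difference was 0.06 (SE 0.276, edgeR adjusted p = 0.963).

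**Figure D5:**
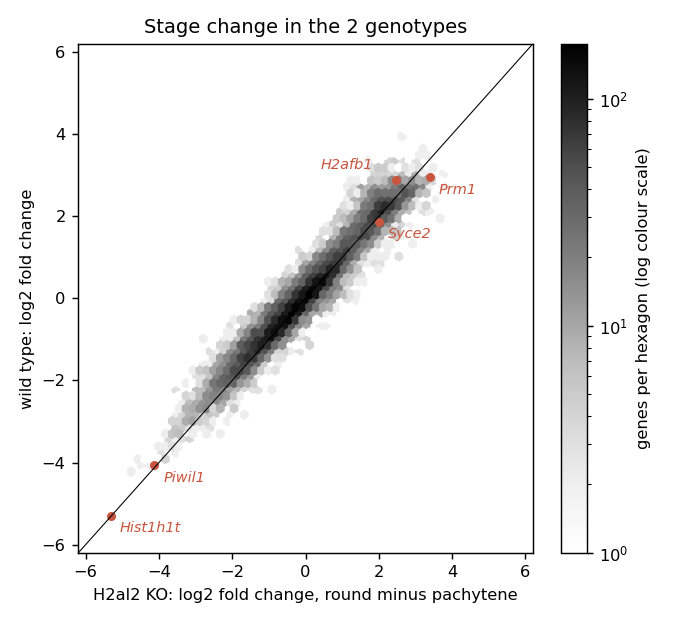
Log2 fold change of round spermatids over pachytene spermatocytes in *H2al2* KO (x axis) and in wild type (y axis) for 12645 genes tested in both, shaded by the number of genes per hexagon on a log colour scale, with the diagonal. Named genes are in red. *Hist1h1t* lies on the diagonal at -5.31, and *Prm1* lies at 3.38 in KO and 2.95 in wild type.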

How the data were processed

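RNA of the 6 *H2al2* KO libraries, and of 6 wild-type libraries beside them, had been prepared with a stranded total RNA kit after depletion of ribosomal RNA. The authors aligned reads to mm10 with STAR 2.7.11b and deposited raw read counts per gene from HTSeq, over exons and without multiply aligned reads, as stated in the study's methods for its RNA-seq. The 5 rows of each file that name no gene were left out. Gene names and positions came from RefSeq (GRCm38.p6): of 24456 genes, 23218 matched by symbol, 1078 by an older symbol and 160 not at all. Counts were scaled by TMM, filtered with filterByExpr and tested with edgeR 4.0.16 (quasi-likelihood, Benjamini-Hochberg at 0.05; R 4.3.3). DESeq2 1.42.0 was an alternative. The test of genotypes by stage used 12 libraries, with terms for the 4 groups. Scripts were tested on simulated data. CPM include the TMM factors, and SE is that of the fitted log2 fold change. Named genes were members of the lists, the 10 largest folds per direction (mean of at least 20 CPM, no overlap), the 6 with the highest mean CPM per direction, the 5 largest X-linked folds, and the gene of H2A.L.2. Some results under this rule are not reported here. The members and lists were chosen with earlier results of these data known. Per the labels the groups share replicate numbers, but deviations of same-numbered libraries correlated at -0.20, 0.22 and -0.19, so that the numbers were not taken to pair them. Those of other pairs ran from -0.51 to 0.46, and with 3 libraries per stage such values cannot exclude a pairing.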

Additional observations from a re-analysis of the deposited data

How the results depend on the processing

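Under the alternatives (DESeq2's test or size factors, library size alone, other filters on low counts, all 18 libraries of 3 stages in the fit, mitochondrial genes removed, each library left out), the higher and lower counts stayed within 1.5 times the reported ones. Asking for at least 10 counts in every library, which tests fewer genes, left 595 genes at least 4-fold lower and 208 X-linked genes higher. One X-linked gene was lower with no filter, and 1 without pachytene replicate 3. The interaction called 1 gene by DESeq2, 1 with no filter, 22 without wild-type pachytene replicate 3 and 4 without wild-type round spermatid replicate 1, the cause of which was not tested. With each library left out in turn, 4545 to 4809 genes were higher, 4672 to 5133 lower, 1329 to 1708 at least 4-fold higher, 906 to 1069 at least 4-fold lower, 309 to 363 X-linked genes higher and 0 to 1 lower, 8688 to 9862 genes called in wild type and 0 to 22 in the interaction, and the X-linked share differed by 0.779 to 0.827 percentage points. The replicate block, by numbers not known to tie the libraries, gave 4713 genes higher and 5043 lower. In the interaction it gave 0 genes called by edgeR and 660 at an unadjusted p under 0.05. It changed no other count by over 1.5 times. With protein-coding genes alone, an alternative chosen after seeing the data, 4361 were higher and 4715 lower. For *Ddx4*, which was not called, the estimate ran from -0.22 to 0.012 with 1 library left out.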

Other observations

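Gene families were collected by symbol, after the values of other genes had been seen, for the same comparison in *H2al2* KO mice. Over all genes tested, 36.9% were higher and 39.8% lower in round spermatids. At least 4-fold higher were 11.3% and at least 4-fold lower 7.49%. Of 256 zinc finger genes named *Zfp*, 151 fell, 45 of them at least 4-fold, and 59 rose, with a median log2 fold change of -0.83. Genes for mitochondrial ribosomal proteins fell in 52 of 76 cases and rose in 7, with a median of -0.69, whereas of 81 genes for cytosolic ribosomal proteins 20 fell and 13 rose, with a median of -0.01. Nuclear genes for subunits of oxidative phosphorylation fell in 43 of 76 cases and rose in 7, with a median of -0.34. Genes for proteasome subunits fell in 25 of 35 cases and rose in 4, with a median of -0.46. Of 41 kinesin genes, 20 (48.8%) were higher and 14 (34.1%) lower. Of 440 protein-coding genes that still carry a Rik clone name, 253 rose, 128 of them at least 4-fold, and 116 fell, with a median of 0.88.

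At low levels, 14 genes were under 1 CPM in every KO pachytene library with a mean of at least 5 CPM in KO round spermatids, and 28 genes showed the reverse. Of 39 replication-dependent histone genes, 10 (25.6%) fell and 7 (17.9%) rose, both under the shares of 39.8% and 36.9% over all genes tested. At least 4-fold lower were 4 (10.3%), beside 7.49% of all genes tested, and 0 were at least 4-fold higher. Summed over the 63 genes of the family, the level was 700 to 782 CPM in KO pachytene and 383 to 590 CPM in KO round spermatid libraries.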
